A study of Mus musculus with 48 samples.

Results

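The transcripts of cellular iron handling were followed around the clock in mouse kidney through 7 genes, Ftl1, Fth1, Tfrc, Slc40a1, Slc11a2, Aco1 and Ireb2. They were taken by name, as mRNAs under control of the iron-responsive element (IRE) together with the proteins that bind it, and all 7 were listed among the 12423 genes with a value in both assays and passed the filter on low values (11863 genes tested). Male C57BL/6JRj mice of 11 to 12 weeks were kept under a 12-h light and 12-h dark cycle with free access to food, with no other treatment or genotype. Kidneys were taken at 12 timepoints 2 h apart, from ZT00 (Zeitgeber time, lights on) through ZT12 (lights off) to ZT22. The lysates of 2 mice made a pool, each timepoint had 2 replicate pools, and each of the 24 pools gave an RNA-seq library (transcript abundance) and an RPF-seq library (ribosome-protected fragments, or footprints, the output of ribosome profiling). Both values are reads on the coding sequence per kilobase, scaled to library size (RPKM), and their ratio within a pool is the relative translation efficiency (TE). Whole kidney is a mixture of cell types, so that fewer cells of a type and less RNA per cell cannot be told apart in any value given here.

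Iron in the cytosol is sensed by the iron regulatory proteins IRP1, which Aco1 encodes and which works as an aconitase when it carries an iron-sulfur cluster, and IRP2, which Ireb2 encodes and which is degraded when iron is plentiful. When iron is scarce they bind IREs, short stem-loops in untranslated regions. An IRE near the start of an mRNA, as in the ferritin chains Ftl1 and Fth1 that store iron and in ferroportin (Slc40a1) that exports it, then blocks translation. IREs in the 3′ UTR, as in the transferrin receptor (Tfrc) that takes iron up, then protect the mRNA from decay, and DMT1 (Slc11a2), which moves ferrous iron across membranes, carries a 3′ element in some of its isoforms. The kidney filters and reclaims iron in its tubules and stores part of it in ferritin.

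The elements are shown because they set apart the genes with a 5′ site from those with a 3′ site. They were searched in the GENCODE vM21 transcripts of GRCm38 on the transcript strand only, as a C, 5 bases, the letters CAGTGN and 5 bases that pair with the former 5, G-U pairs allowed. Each line gives a window of 30 bases from 5′ to 3′ as DNA letters, and the capitals mark the bulged C and the 6 bases of the loop.
Ftl1, 5′ UTR: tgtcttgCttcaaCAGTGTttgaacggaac
Fth1, 5′ UTR: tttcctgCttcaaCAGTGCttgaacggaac
Slc40a1, 5′ UTR: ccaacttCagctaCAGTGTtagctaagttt
Tfrc, 3′ UTR, element 1: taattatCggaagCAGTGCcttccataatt
Tfrc, 3′ UTR, element 2: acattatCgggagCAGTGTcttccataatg
Tfrc, 3′ UTR, element 3: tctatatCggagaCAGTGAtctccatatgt
Tfrc, 3′ UTR, element 4: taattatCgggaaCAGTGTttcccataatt

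The Ftl1 window lay at chr7:45459779-45459808 on the minus strand, the Fth1 window at chr19:9982731-9982760 on the plus strand and the Slc40a1 window at chr1:45925465-45925494 on the minus strand, each in the 5′ UTR. The Tfrc windows lay at chr16:32631218-32631247, chr16:32631597-32631626, chr16:32631662-32631691 and chr16:32631709-32631738 on the plus strand, all in the 3′ UTR. Such a match stood in the 5′ UTR of 21 of 20100 genes (0.104%) and in the 3′ UTR of 111 of 20593 (0.539%). The share was also taken among UTRs at least as long as the member's own, cut to its length. Of 5′ UTRs it was 0.0731% for Ftl1 (5 of 6840), 0.143% for Fth1 (1 of 699) and 0.181% for Slc40a1 (9 of 4965). Of 3′ UTRs it was 1.09% for Tfrc (38 of 3481). These counts include the member itself, and the only match counted for Fth1 is its own. No match was found in Slc11a2, Aco1 or Ireb2, which says only that this pattern, letters and full pairing together, is not in their annotated UTRs. The genes themselves lie at chr7:45457944-45459884 (Ftl1), chr19:9980598-9985098 (Fth1), chr16:32608920-32632794 (Tfrc), chr1:45908068-45926523 (Slc40a1), chr15:100387898-100425072 (Slc11a2), chr4:40143081-40198338 (Aco1) and chr9:54863789-54912530 (Ireb2).

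The depth of the libraries, recovered from the steps between low RPKM values, ran from 0.598 to 2.04 of the median in RNA-seq and from 0.701 to 1.58 in RPF-seq. The least covered of the 7 genes, Slc40a1, rested on 469 to 1812 reads per RNA library and 470 to 2022 per RPF library, and Fth1 RNA on 16688 to 74902. Around a 24-h curve, the RNA libraries of ZT12 replicate 2 and ZT10 replicate 2 (SD 0.28 and 0.27 log2 over all genes) and the RPF libraries of ZT04 replicate 2 and ZT16 replicate 2 (0.41 and 0.34) spread most, against medians of 0.19 and 0.21, and rhythms, pair differences and correlations below that change without these pools are given both ways, while the fit with a 12-h harmonic was made with all pools only. Kidney markers were present in every pool, with a summed RNA level of 3693 to 4310 RPKM for the 3 proximal tubule markers and 2523 to 3694 RPKM for the 2 of the thick ascending limb. Of the markers of other cells, the 4 of 7 for erythroid cells and blood summed to 54.4 to 373 RPKM. The 4 for macrophages summed to 30.2 to 42.1 RPKM and the 3 for hepatocytes to 117 to 456 RPKM. Of the erythroid markers, Hbb-bs, Hbb-b1 and Hbb-b2 were not analysed here.

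Footprints per transcript placed the ferritins apart from the other 5 genes. On the scale of RPKM, which is per length, mean RNA over the 24 pools was 4082 ± 1036 (SD) for Fth1, 1749 ± 239 for Ftl1, 203 ± 14.8 for Aco1, 65.2 ± 17.5 for Tfrc, 48.6 ± 5.86 for Ireb2, 46.5 ± 3.47 for Slc11a2 and 33.3 ± 4.37 for Slc40a1. Of the 11863 genes tested, 15 had a higher mean RNA than Fth1 and 31 than Ftl1. Neighbours in this order whose means lay within an SD of each other were Tfrc and Ireb2, and Ireb2 and Slc11a2. The order of mean footprints was Fth1 (484 ± 120 RPKM), Aco1 (290 ± 16.3), Ftl1 (178 ± 42.7), Tfrc (94.4 ± 18.6), Slc11a2 (64.5 ± 5.71), Ireb2 (37.6 ± 2.82) and Slc40a1 (25.1 ± 7.30), so that Aco1 stood above Ftl1, and no neighbours in this order lay within an SD of each other.

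The TE of Ftl1 was 0.103 ± 0.025 and that of Fth1 0.124 ± 0.040 (SD, n = 24 pools), values that overlapped within their spread. Taken as mean RPF over mean RNA, only 52 and 83 of the 11863 genes had a lower TE than Ftl1 and Fth1, and the median of all genes was 0.956. Slc40a1, the other gene with a 5′ element, had a TE of 0.750 ± 0.176 and Ireb2 of 0.786 ± 0.112, again within their spread. The 5′ match stood in 1 of 4 annotated protein-coding transcripts of Slc40a1, 1 of 2 of Ftl1 and 4 of 5 of Fth1. TE is per gene, so that isoforms with and without the match were not separated. Slc11a2 (1.39 ± 0.11), Aco1 (1.43 ± 0.09) and Tfrc (1.48 ± 0.19) were above the median and not separable from each other. Near-identical copies bear on the ferritins, since 95.6% of the 30-base windows of the Ftl1 coding sequence and 23.5% of those of Fth1 also occur in transcripts of other genes, mostly ferritin pseudogenes, against 0% for the other 5. How reads that match several transcripts were counted is not given in the sources used here, and the part of these copies in the low TE was not tested.

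**Figure D1:**
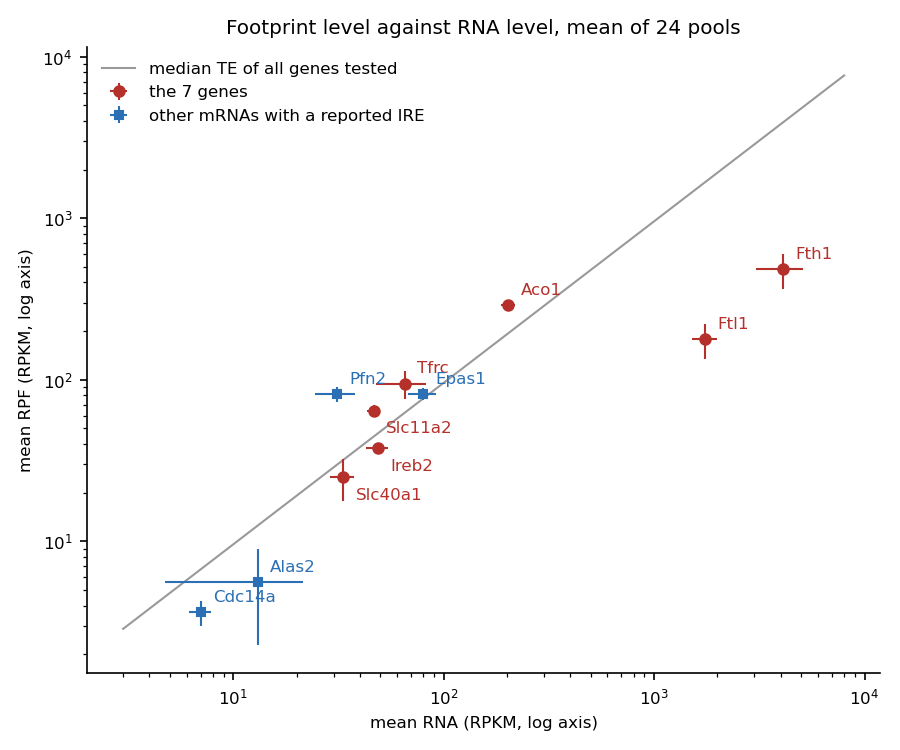
Mean RPF against mean RNA over 24 pools (RPKM, both axes logarithmic; bars are ± SD) for the 7 genes (red circles) and 4 other mRNAs with a known or reported IRE (blue squares). The line marks the median TE of all genes tested (0.956); Ftl1 and Fth1 lie far below it at a TE of 0.103 and 0.124, and Slc11a2, Aco1 and Tfrc lie above it.

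The daily profile of each gene was then tested for a 24-h rhythm with limma, as a moderated F test of a cosine and sine on log2(RPKM + 0.1), with Benjamini-Hochberg adjustment over all 11863 genes. A rhythm was called at an adjusted p under 0.05 with a fitted peak-to-trough fold of at least 1.5. In RNA, 4 of the 7 genes had an adjusted p under 0.05 (background 48.6% of all genes tested) and 2 were also past the fold (10.2%). In footprints these counts were 3 (30.9%) and 1 (7.58%). In TE they were 2 (17.1%) and 0 (3.74%), while 3 of 7 had an unadjusted p under 0.05 in TE, as did 4029 of all 11863 genes. No more is read from these counts, and each gene's own profile is given below by role.

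**Figure D2:**
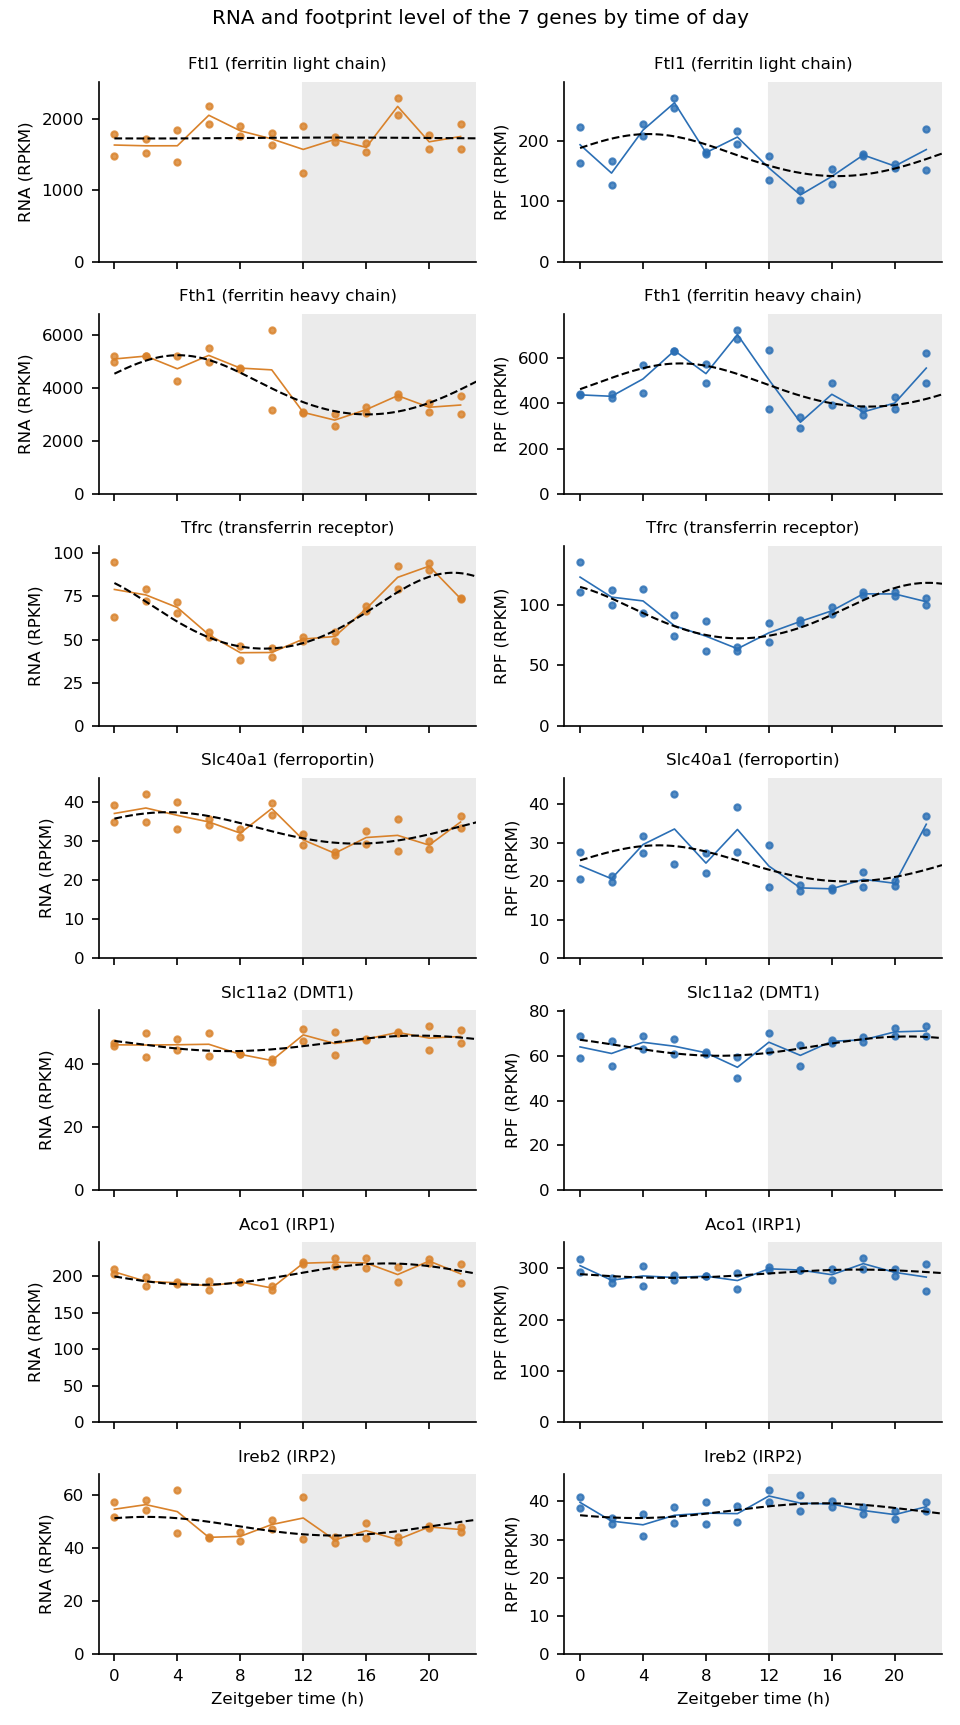
RNA (left) and RPF (right) level in RPKM against Zeitgeber time in hours for the 7 genes. Points are the 2 pools of a timepoint and the thin line joins their means. The dashed line is the fitted 24-h curve and grey marks the dark phase. Fth1 and Tfrc RNA have the deepest fitted curves, whereas the fitted curve of Ftl1 RNA is level.

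Fth1, the ferritin heavy chain with the ferroxidase that oxidises incoming iron, had an RNA rhythm of 1.74-fold that peaked at 4.07 ± 0.60 h (SE). In the 12 pools of the light phase (ZT00 to ZT10) Fth1 RNA ran from 3171 to 6178 RPKM with a median of 5077, and in the 12 pools of the dark phase from 2567 to 3766 with a median of 3090. Of the light pools, 11 were above all dark pools, and the exception was ZT10 replicate 2 (3171 RPKM, against 6178 in replicate 1). The log2 peak-to-trough of the RNA was 0.80 ± 0.13 (SE, adjusted p 7.0e-05, limma), and it stayed called with each of the 24 pools left out in turn (1.69- to 1.81-fold).

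Fth1 footprints followed the RNA less closely. They ran from 421 to 722 RPKM in the light and from 291 to 633 RPKM in the dark, so that the phases overlapped, and the highest values were those of ZT10 (681 and 722 RPKM in the 2 pools). The fitted curve peaked at 6.37 ± 1.04 h with a log2 peak-to-trough of 0.58 ± 0.16 (1.49-fold, adjusted p 0.020, limma), just under the fold threshold. The RPF peak came 2.30 ± 1.21 h after the RNA peak. Without the pools ZT04 replicate 2 and ZT16 replicate 2 the footprint curve was called (1.60-fold, adjusted p 0.0092, limma). TE of Fth1 was 0.081 to 0.228 in the light and 0.096 to 0.206 in the dark. The highest TE values were those of ZT10 replicate 2 (0.228), ZT12 replicate 2 (0.206) and ZT22 replicate 1 (0.205), each far above the other pool of its timepoint (0.110, 0.121 and 0.133). The TE curve did not pass the test (log2 0.46 ± 0.22, adjusted p 0.27, limma), and its fitted fold fell from 1.38 to 1.2 without the pools ZT10 replicate 2 and ZT12 replicate 2, which were among the doubted RNA libraries.

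Ftl1, the light chain that helps the iron core to form, had no RNA curve to speak of and a footprint curve about as deep as that of Fth1. Its RNA ranged from 1403 to 2174 RPKM in the light and from 1245 to 2294 RPKM in the dark, with medians of 1774 and 1713 and a fitted log2 peak-to-trough of 0.01 ± 0.11 (adjusted p 0.996, limma). A smaller fitted fold was found in 0.16% of the genes tested. Footprints of Ftl1 ran from 127 to 271 RPKM in the light, with a median of 202, and from 102 to 220 RPKM in the dark, with a median of 154. Both pools of ZT06 (271 and 255 RPKM) were high, and both pools of ZT14 (120 and 102 RPKM) were the lowest of the day. The footprint curve peaked at 4.35 ± 1.04 h and passed the adjusted p (0.020, limma) at a log2 peak-to-trough of 0.58 ± 0.16 (1.49-fold), and with single pools left out the fold ranged from 1.41 to 1.61. Without the pools ZT10 replicate 2 and ZT12 replicate 2 the Ftl1 footprint curve was called (1.51-fold, adjusted p 0.022, limma). Without replicate 1 neither ferritin footprint curve had an adjusted p under 0.05 (0.29 for Ftl1 and 0.35 for Fth1, limma).

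The fitted curve of Ftl1 RNA was level, and the fitted TE curve of Ftl1 was close to that of its footprints. By the mean of the 2 pools, footprints were highest at ZT06 and TE at ZT04 (0.136). RNA still differed between pools, and ZT12 replicate 2, a doubted RNA library, had the lowest Ftl1 RNA (1245 RPKM). TE was 0.083 to 0.148 in the light with a median of 0.117, and 0.061 to 0.141 in the dark with a median of 0.083. Apart from ZT12 replicate 2 (0.141) and ZT22 replicate 1 (0.139), no dark pool exceeded 0.103. The TE curve peaked at 4.31 ± 1.15 h at a log2 peak-to-trough of 0.58 ± 0.18, with an unadjusted p of 0.010 and an adjusted p of 0.056 (limma), and so missed the threshold on the p, with a fold (1.4997) that also lay at its threshold. It was called in 4 of the 24 fits that each left out a pool, those without ZT02 replicate 2, ZT12 replicate 2, ZT16 replicate 1 or ZT22 replicate 1. Without the pools ZT10 replicate 2 and ZT12 replicate 2 it passed (1.59-fold, adjusted p 0.014), and without ZT04 replicate 2 and ZT16 replicate 2 it did not (1.43-fold, adjusted p 0.15).

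**Figure D3:**
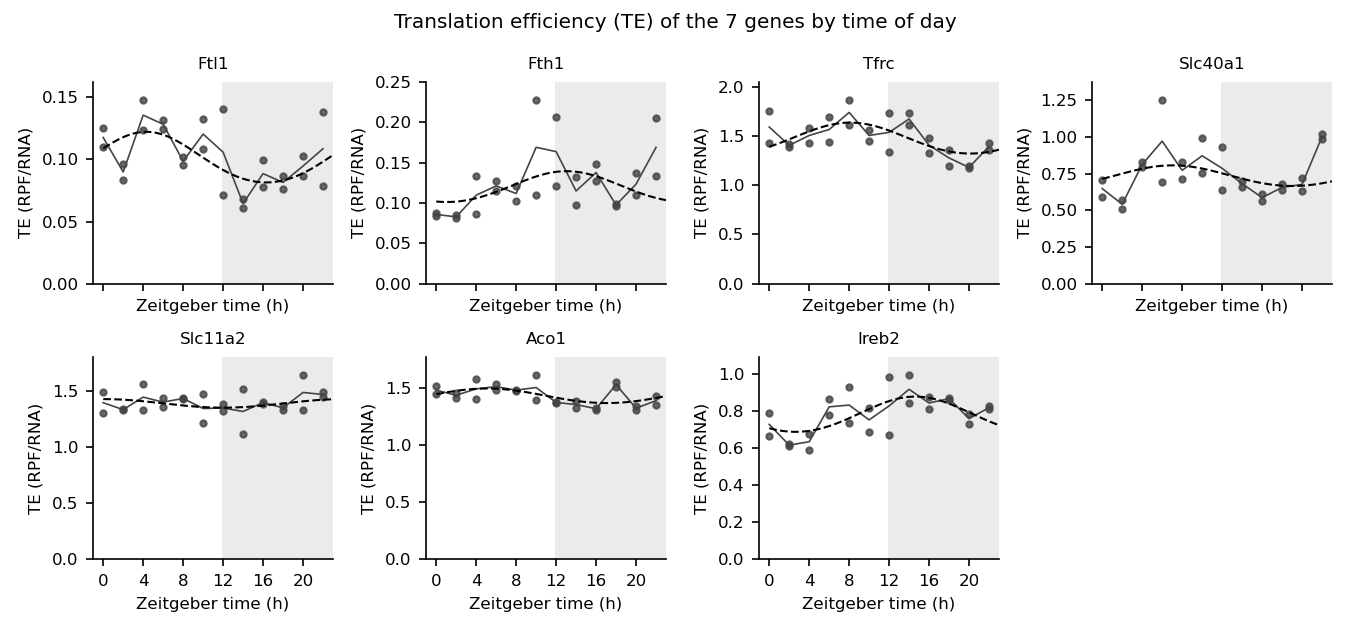
TE (RPF over RNA, no unit) against Zeitgeber time in hours for the 7 genes. Points are the 2 pools of a timepoint, the thin line joins their means, the dashed line is the fitted 24-h curve and grey marks the dark phase; Ftl1 TE has its fitted peak at 4.31 h and Fth1 TE at 13.0 h, and single pools of ZT10, ZT12 and ZT22 stand high in Fth1.

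Tfrc, which brings transferrin-bound iron into the cell, had the deepest rhythm of the 7 genes in RNA. Its RNA was lowest at ZT08 (46.4 and 38.4 RPKM) and ZT10 (39.8 and 45.2 RPKM) and highest at ZT20 (90.4 and 94.4 RPKM) and ZT18 (79.4 and 92.5 RPKM). At ZT00 the 2 pools differed (63.0 and 94.9 RPKM). The fitted peak was at 21.5 ± 0.37 h, with a log2 peak-to-trough of 0.99 ± 0.10 (1.98-fold, adjusted p 8.9e-08, limma). Of all genes tested, 97.9% had a smaller fitted RNA fold.

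Tfrc footprints had the same phase and a shallower curve. By the mean of the 2 pools they were lowest at ZT10 (62.0 and 65.6 RPKM, with a single pool of ZT08 at 61.9) and highest at ZT00 (110.5 and 135.5 RPKM), and the fit gave a peak at 22.1 ± 0.49 h and a log2 peak-to-trough of 0.71 ± 0.09 (1.63-fold, adjusted p 9.7e-06, limma). The footprint peak came 0.60 ± 0.61 h after that of the RNA. By the same mean, TE was highest at ZT08 (1.87 and 1.61) and lowest at ZT20 (1.19 and 1.17), at about the times of lowest and highest RNA, with a log2 peak-to-trough of 0.31 ± 0.09 and an adjusted p of 0.046 (limma). RNA is the denominator of TE, so that the 2 curves are not independent. At 1.24-fold it was not called, and its adjusted p stayed under 0.05 in 7 of the 24 fits that each left out a pool, and was 0.074 without the pools ZT04 replicate 2 and ZT16 replicate 2.

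Slc11a2 RNA hardly varied. It was 40.5 to 49.8 RPKM in the light and 42.9 to 51.9 RPKM in the dark (log2 peak-to-trough 0.15 ± 0.06, adjusted p 0.094, limma). Its footprints were 50.1 to 69.0 and 55.7 to 73.4 RPKM (0.19 ± 0.07, adjusted p 0.082), and its TE 1.21 to 1.56 and 1.12 to 1.64 (0.08 ± 0.07, adjusted p 0.68). In all 3 measures the light and dark pools overlapped. The values are per gene, so that isoforms with and without the 3′ element were not separated.

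Slc40a1, the only known exporter of iron from cells, had an RNA rhythm below the fold threshold. RNA was 31.0 to 42.0 RPKM in the light and 26.4 to 36.4 RPKM in the dark, with medians of 35.2 and 29.6, and the fit peaked at 3.40 ± 0.90 h with a log2 peak-to-trough of 0.35 ± 0.08 (1.27-fold, adjusted p 0.0042, limma). Without replicate 1 the RNA curve no longer passed (1.2-fold, adjusted p 0.33). Footprints were 19.9 to 42.7 RPKM in the light and 17.4 to 37.0 in the dark, and at ZT22 both pools were high (32.7 and 37.0 RPKM) beside the other dark pools. The cosine missed the threshold for footprints (log2 0.56 ± 0.18, adjusted p 0.059) and TE (0.28 ± 0.17, adjusted p 0.45, limma). Without the pools ZT10 replicate 2 and ZT12 replicate 2 the footprint curve had an adjusted p of 0.031 (limma), with a fold just under the threshold.

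Of the 2 binding proteins, Aco1 had a shallow RNA rhythm and Ireb2 had none that passed with all pools. Aco1 RNA was 181 to 210 RPKM in the light and 190 to 225 in the dark, with medians of 192 and 217, and its fitted peak at 17.3 ± 0.92 h had a log2 peak-to-trough of 0.21 ± 0.05 (1.16-fold, adjusted p 0.0048, limma). Without replicate 1 this RNA curve no longer passed (1.09-fold, adjusted p 0.53). Its footprints ranged from 257 to 320 RPKM and its TE from 1.30 to 1.61, neither with an adjusted p under 0.05 (0.43 and 0.22). Ireb2 RNA was 42.9 to 62.1 RPKM in the light and 41.9 to 59.4 in the dark (log2 0.21 ± 0.09, adjusted p 0.11), and its footprints ranged from 31.0 to 43.0 RPKM (0.15 ± 0.06, adjusted p 0.15). By the mean of the 2 pools, the TE of Ireb2 was lowest at ZT02 (0.621 and 0.612) and highest at ZT14 (0.995 and 0.843), with a log2 peak-to-trough of 0.35 ± 0.10, a peak at 14.6 ± 1.09 h and an adjusted p of 0.044 (limma). At 1.28-fold it was not called, and its adjusted p stayed under 0.05 in 9 of the 24 fits that each left out a pool, and was 0.115 without the pools ZT04 replicate 2 and ZT16 replicate 2. Without ZT10 replicate 2 and ZT12 replicate 2, Ireb2 RNA did pass (1.22-fold, adjusted p 0.0096, limma).

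**Figure D4:**
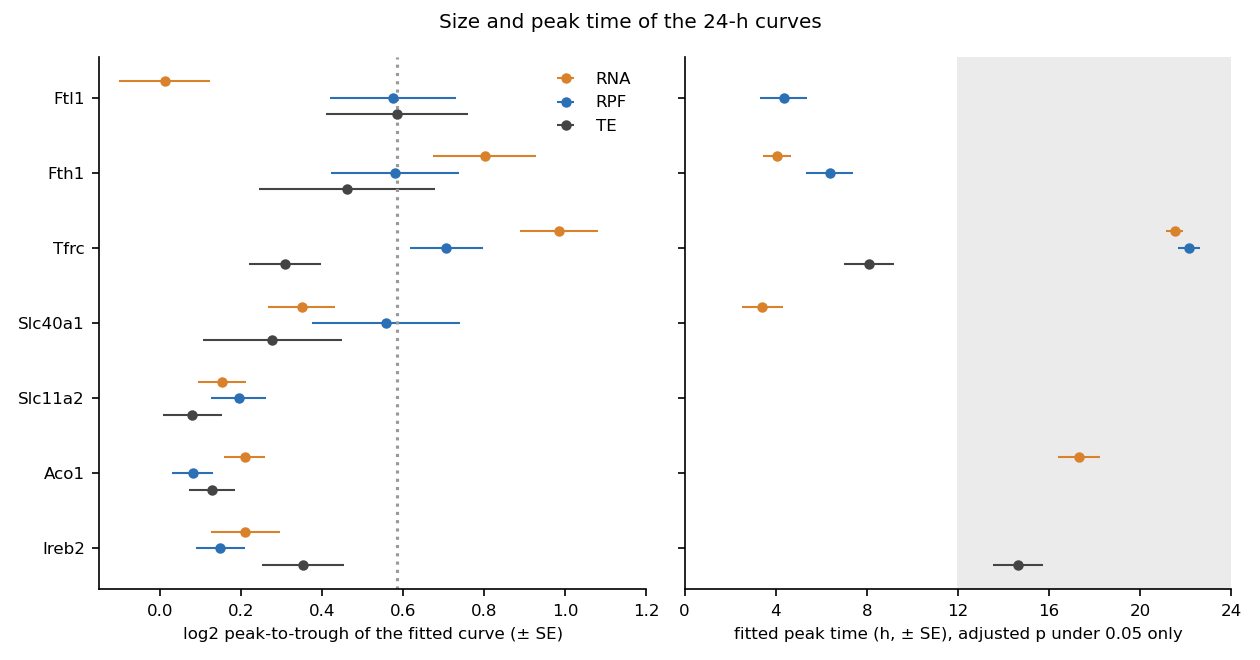
Left, log2 peak-to-trough of the fitted 24-h curve (± SE) of RNA, RPF and TE for the 7 genes, with the 1.5-fold threshold dotted; right, fitted peak time in hours (± SE) for the curves with an adjusted p under 0.05, with the dark phase grey. Tfrc RNA and RPF peak at 21.5 and 22.1 h, and the ferritin and Slc40a1 curves shown peak between 3.40 and 6.37 h.

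The TE of the ferritins was next compared with the RNA of the receptor and the transporters. For each of 12 pairs of profiles, the 24-h component of the difference between the 2 log2 profiles was tested by permuting the 24 pools over the timepoints (100000 resamples, 2-sided, Benjamini-Hochberg over the 12 pairs), and 9 had an adjusted p under 0.05. Ftl1 TE and Tfrc RNA had fitted peaks 6.79 h apart, and their difference had a log2 peak-to-trough of 1.24 (permutation adjusted p 0.00036). Fth1 TE and Tfrc RNA had fitted peaks 8.48 h apart in the other direction, the TE earlier, with a difference of 1.32 (permutation adjusted p 0.00086). Against Slc11a2 RNA, Ftl1 TE differed by 0.70 (permutation adjusted p 0.014, but 0.061 under quantile normalisation) and Fth1 TE by 0.50, which did not pass (permutation adjusted p 0.13). Against Slc40a1 RNA, which peaked 0.91 h before Ftl1 TE, the difference of Ftl1 TE did not pass (0.26, permutation adjusted p 0.37), whereas Fth1 TE differed by 0.77 (permutation adjusted p 0.017). A pair can pass because 1 of its profiles is rhythmic and the other level, as Tfrc and Slc11a2 RNA did (difference 0.86, permutation adjusted p 6.0e-05). Neither ferritin TE curve passed its own rhythm test, so that the hours between its fitted peak and others, here and below, are not fixed.

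Within roles, the TE profiles of the 2 ferritin chains differed from each other by a log2 peak-to-trough of 0.95 (permutation adjusted p 0.00086), with fitted peaks 8.74 h apart. The Fth1 TE peak went from 13.0 to 15.4 h without the pools ZT10 replicate 2 and ZT12 replicate 2. Footprint curves of the 2 chains were about equally deep (log2 0.58 each). Of their RNA, which is the denominator of TE, only that of Fth1 was rhythmic. The part of the RNA in this TE difference was not tested. Slc40a1 TE differed from Fth1 TE (0.54, permutation adjusted p 0.023) but not detectably from Ftl1 TE (0.42, permutation adjusted p 0.11). Tfrc and Slc40a1 RNA differed by 1.04 (permutation adjusted p 6.0e-05), and Aco1 and Ireb2 RNA by 0.38 with fitted peaks 8.72 h apart (permutation adjusted p 0.0027). With replicate 1 alone 2 of these pairs passed, both of Tfrc RNA with a transporter, and with replicate 2 alone 5 passed. The difference of Aco1 and Ireb2 was lost with either replicate alone (permutation adjusted p 0.091 and 0.076). Without the pools ZT10 replicate 2 and ZT12 replicate 2, 9 pairs passed, and without ZT04 replicate 2 and ZT16 replicate 2, 6 did. In the latter, Ftl1 TE against Slc11a2 RNA (permutation adjusted p 0.054), Fth1 TE against Slc40a1 RNA (permutation adjusted p 0.059) and Fth1 TE against Slc40a1 TE (permutation adjusted p 0.15) no longer passed.

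The footprints of the 3 genes with a 5′ element were also compared timepoint by timepoint, at times chosen after their values were seen. In Ftl1, Fth1 and Slc40a1, the mean of the 2 pools was higher at ZT06, ZT10 and ZT22 than at ZT02 and ZT14. At ZT06 it was 263 RPKM in Ftl1, the highest of the day, 631 in Fth1 and 33.6 in Slc40a1. Ftl1 gave 206 and 186 RPKM at ZT10 and ZT22 against 147 and 111 at ZT02 and ZT14, Fth1 gave 702 and 554 against 430 and 316, and Slc40a1 gave 33.5 and 34.8 against 20.7 and 18.3. Single pools did not always keep this order. The Ftl1 pools of ZT22 (220 and 152 RPKM) overlapped those of ZT02 (167 and 127 RPKM). In Slc40a1 the 2 pools lay far apart at ZT06 (24.5 and 42.7 RPKM) and ZT10 (27.55 and 39.4 RPKM), though all were above those of ZT02 and ZT14. With a 12-h harmonic added to the fit the RPF curves of 4 of the 7 genes were called (background 10.6% of genes). That test takes the 24-h and 12-h terms together, and the 12-h term alone was not tested. These were Ftl1 (1.86-fold, adjusted p 0.0049), Fth1 (1.82-fold, adjusted p 0.0081), Slc40a1 (1.78-fold, adjusted p 0.040) and Tfrc (1.69-fold, limma), while the TE of none of the 7 was called in that fit.

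How the 7 genes vary together was examined after these values were seen, from the deviations of the 24 pools around each gene's 24-h curve. There were 66 relations, with 100000-resample permutation tests and Benjamini-Hochberg adjustment. Only the 24-h curve was removed, so the deviations can still hold patterns of time of day that both pools of a timepoint share. The permutation p-values can therefore be too small. By Pearson r, 11 relations had an adjusted p under 0.05, 5 of them in footprints, 3 in RNA and 3 in TE. By Spearman rho 3 did, and by the differences between the 2 pools of a timepoint, described below, 0 did after adjustment. In TE, Fth1 went with Slc40a1 (r 0.67, permutation adjusted p 0.010) and with Ftl1 (r 0.60, permutation adjusted p 0.019). Tfrc TE went with Ireb2 TE (r 0.54, permutation adjusted p 0.044). By rho none of these 3 passed (permutation adjusted p 0.090, 0.17 and 0.12). Without the pools ZT10 replicate 2 and ZT12 replicate 2 their r were 0.61, 0.42 and 0.47. Without ZT04 replicate 2 and ZT16 replicate 2 they were 0.72, 0.68 and 0.59. In footprints, Fth1 went with Slc40a1 (Pearson r 0.65, permutation p 0.00050, adjusted 0.010; Spearman rho 0.58, permutation p 0.0035, adjusted 0.052) and with Ftl1 (r 0.64, permutation p 0.00062, adjusted 0.010; rho 0.63, permutation p 0.0011, adjusted 0.030). Ftl1 and Slc40a1 had an r of 0.56 (permutation p 0.0049, adjusted 0.036) and a rho of 0.57 (permutation p 0.0040, adjusted 0.052). Tfrc footprints went the other way, with an r of -0.62 to Slc40a1 (permutation p 0.0011, adjusted 0.015; rho -0.63, permutation p 0.0013, adjusted 0.030) and -0.54 to Fth1 (permutation p 0.0076, adjusted 0.045; rho -0.52, permutation p 0.010, adjusted 0.090). Without the 2 pools farthest from the median, these r were 0.60, 0.53, 0.46, -0.77 and -0.49 in the same order. They were 0.54, 0.61, 0.50, -0.58 and -0.48 without the pools ZT10 replicate 2 and ZT12 replicate 2, and 0.74, 0.70, 0.55, -0.72 and -0.51 without ZT04 replicate 2 and ZT16 replicate 2. Tfrc and Ftl1 footprints, by contrast, had an r of -0.27 that did not pass (permutation p 0.21, adjusted 0.49). Their rho of -0.29 did not pass either (permutation p 0.17, adjusted 0.46).

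Among the 11862 other genes, Slc40a1 ranked 15 and Ftl1 22 in likeness to Fth1 footprints around the curve, and Tfrc ranked 11789. For Slc40a1 footprints, Fth1 ranked 8, Ftl1 71 and Tfrc 11840. The footprints of Slc11a2, Aco1 and Ireb2 had r between -0.23 and 0.22 with those of the 3 genes. When time was removed altogether, by taking the difference between the 2 pools of each of the 12 timepoints, the r were 0.52 for Ftl1 and Fth1, 0.32 for Fth1 and Slc40a1, 0.29 for Ftl1 and Slc40a1, -0.60 for Tfrc and Slc40a1 and -0.26 for Fth1 and Tfrc, and none passed an exact sign-flip test (unadjusted p 0.15, 0.69, 0.33, 0.099 and 0.57). All values of a pool share its library. The r of the 4 footprint profiles to the relative depth of the libraries were between -0.10 and 0.06. To the summed erythroid markers they were between -0.09 and 0.23, and to those of hepatocytes between -0.50 (Slc40a1) and 0.20. To those of macrophages they were between -0.30 (Ftl1) and 0.10. To those of the proximal tubule they were between -0.19 and 0.24, and to those of the endothelium between -0.08 and 0.34 (Fth1). The part of these in the relations was not tested.

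**Figure D5:**
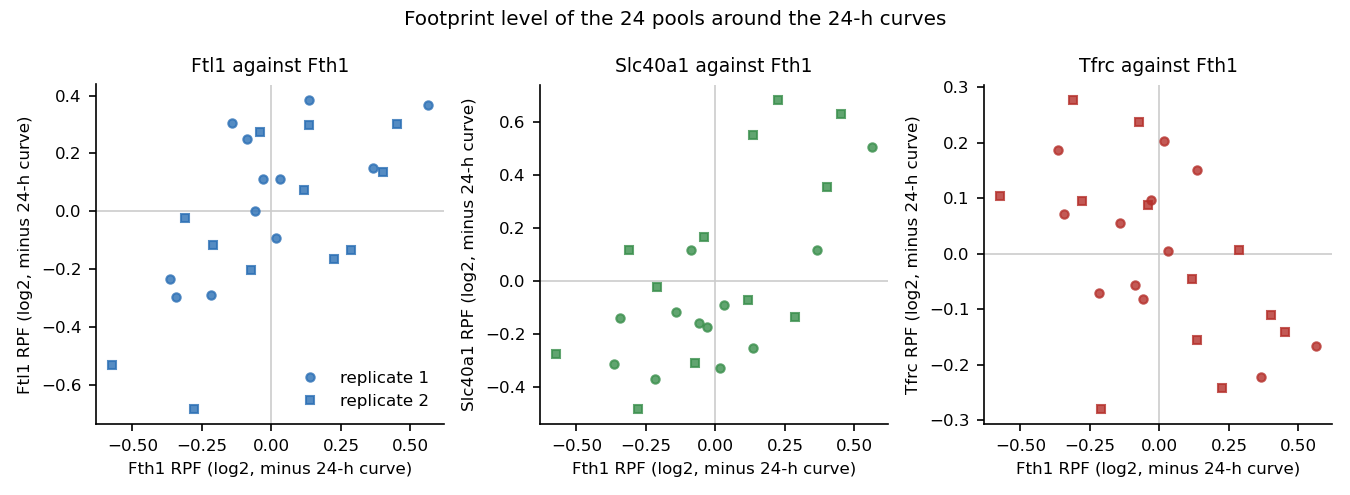
Deviation of log2 footprints from the 24-h curve in the 24 pools, for Ftl1 (left), Slc40a1 (middle) and Tfrc (right) on the vertical axis against Fth1 on the horizontal axis; circles are replicate 1 and squares replicate 2. Ftl1 (r 0.64) and Slc40a1 (r 0.65) rise with Fth1, and Tfrc falls (r -0.54).

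In RNA the closest relation was between Ftl1 and Ireb2, with an r of -0.84 around the curves (permutation p 1e-05, the smallest that 100000 resamples give, adjusted 0.00066; rho -0.83, permutation p 1e-05, adjusted 0.00066; r -0.79 without the 2 farthest pools). Between the pools of a timepoint it was -0.86 (exact sign-flip p 0.012, adjusted 0.46). Aco1 RNA had an r of -0.57 to Ftl1 (permutation p 0.0041, adjusted 0.034) and -0.58 to Slc40a1 (permutation p 0.0030, adjusted 0.028), with a rho of -0.47 (permutation p 0.022, adjusted 0.13) and -0.40 (permutation p 0.057, adjusted 0.23), and r of -0.35 and -0.41 without the 2 farthest pools. Among the 11862 other genes, Ireb2 ranked 11822 and Aco1 10555 in likeness to Ftl1 RNA around the curve, so that many other genes opposed Ftl1 more than Aco1 did. For Slc40a1 RNA, Aco1 ranked 11736. For Aco1 RNA, Ftl1 ranked 11742 and Slc40a1 11761. Without the pools ZT10 replicate 2 and ZT12 replicate 2 the r of Ftl1 and Ireb2 RNA was -0.76. That of Aco1 RNA was then -0.57 to Ftl1 and -0.61 to Slc40a1. Without ZT04 replicate 2 and ZT16 replicate 2 these r were -0.83, -0.58 and -0.60.

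The genes whose RNA profile was most like that of a member, by Pearson r of log2 values over the 24 libraries and with no test, were Gpx1, Cox18 and Psap for Ftl1 (r 0.88 to 0.90) and Snrpd3, Aldh9a1 and Acadl for Fth1 (0.94 to 0.96). They were Aldh8a1, Klhl7 and Met for Tfrc (0.92 to 0.93), Msi2, Kdm3b and Zfp740 for Slc40a1 (0.79 to 0.83) and Tmem37, Adh1 and Thrb for Slc11a2 (0.69 to 0.77). For Aco1 they were Ces1d, Defb29 and Vstm2a (0.84 to 0.85), and for Ireb2 Ankrd13c, 4931406C07Rik and Slmap (0.90). In TE, the profiles most like Ftl1 were those of Cnot11, Nckap1l and Psmf1 (0.72 to 0.76), and those most like Fth1 were Jmy, Fmo5 and Rbms2 (0.73 to 0.82). No member was among the 3 of another.

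Of the other mRNAs with a known or reported IRE, 4 of 5 were tested and none was called in RNA, footprints or TE, with median folds of 1.19, 1.18 and 1.19 beside 1.2, 1.18 and 1.19 over all genes. Alas2, the first enzyme of heme synthesis in erythroid cells and with a 5′ match, was at 13.1 ± 8.33 RPKM in RNA, from 5.99 to 34.8 RPKM between pools, with a TE of 0.435 ± 0.074. Epas1, which encodes the hypoxia factor HIF-2α, had a TE of 1.04 ± 0.17 and a shallow rhythm in RNA (1.29-fold, adjusted p 0.011) and footprints (1.15-fold, adjusted p 0.033, limma). Cdc14a, a phosphatase, and Pfn2, a profilin, had TEs of 0.525 ± 0.087 and 2.72 ± 0.53 and no adjusted p under 0.05. Each of the 4 genes with a 5′ match described here (Ftl1, Fth1, Alas2 and Slc40a1) had a mean TE below the median of 0.956. For Slc40a1 the distance was small, since 35.9% of all genes had a lower TE. Of the genes here without a 5′ match, Ireb2 (0.786) and Cdc14a were also below the median. Tfrc, Slc11a2, Aco1, Epas1 and Pfn2 were above it. Epas1, Cdc14a and Pfn2 are listed as mRNAs with a known or reported IRE, so that a missing match does not show a missing element. The split at the median thus holds for matches to the searched pattern and not for all known or reported IREs. The other genes with a 5′ match were not examined.

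Of the machinery that degrades IRP2, 4 of 5 genes were tested and none was called. Fbxl5, the iron-sensing subunit that recognises IRP2, had an RNA curve of 1.24-fold peaking at 21.2 h (adjusted p 0.0073, limma) and a footprint curve of 1.08-fold (adjusted p 0.28). Skp1a, an adaptor of the same ligase, had an RNA curve of 1.40-fold peaking at 20.0 h (adjusted p 0.00049) and an opposing TE curve of 1.31-fold at 7.90 h (adjusted p 0.026), with level footprints of 1292 ± 72.7 RPKM. For the scaffold Cul1, only TE passed the adjusted p (1.28-fold, 0.029), and for Rbx1, the RING subunit, no measure did (RNA 1.18-fold, adjusted p 0.11).

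Over all iron lists together, 56 genes were tested beside the 7, and 5 were called in RNA (background 10.2% of all genes), 1 in footprints (7.58%) and 3 in TE (3.74%), with median folds of 1.22, 1.16 and 1.22 beside 1.2, 1.18 and 1.19 over all genes. In ferritin loading and turnover, 2 of 4 genes were called in RNA (background 10.2%), a count that rests on the threshold, since Pcbp2, a chaperone that delivers iron to ferritin, was at 1.49-fold. The related Pcbp1 had RNA of 76.2 to 143 RPKM with a 1.54-fold curve peaking at 5.04 h (adjusted p 4.5e-06) and a TE curve of 1.71-fold peaking at 18.6 h (adjusted p 6.9e-05, limma). Its footprints varied less, by 1.24-fold. Ncoa4, the receptor that takes ferritin to the lysosome, peaked at 15.9 h in RNA (1.5-fold, adjusted p 3.7e-08) and at 14.8 h in footprints (1.52-fold, adjusted p 9.9e-06). Fth1 RNA thus had its fitted peak in the light phase and Ncoa4 RNA in the dark phase.

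In iron export and systemic control, 3 of 8 genes were called in RNA (background 10.2%) and 2 in TE (3.74%). Flvcr1, a heme exporter, peaked at 17.2 h in RNA (1.51-fold, adjusted p 0.0012, limma). Hpx and Hp, the plasma proteins that bind heme and hemoglobin, were near the filter, with mean RNA of 0.688 and 1.66 RPKM, and their calls in RNA (2.79- and 2.01-fold) and TE (6.19- and 2.38-fold) rest on few reads. None of the 9 genes tested for cellular iron uptake and reduction, the 18 for mitochondrial iron and iron-sulfur assembly and the 9 for cytosolic iron-sulfur assembly was called in any measure, and 5, 8 and 4 of them had an adjusted p under 0.05 in RNA (background 48.6%).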

How the data were processed

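Kidneys from 24 pools of 2 mice each were measured by RNA-seq and RPF-seq (48 libraries). The authors trimmed and size-filtered reads, mapped them to mouse cDNA and GRCm38 (per the labels' processing notes with Bowtie2 2.2.1 and TopHat2 2.0.11), counted reads on coding sequences, normalised libraries by the upper quantile method of edgeR and deposited the resulting RPKM, 1 number for each gene in every library. The upper quantile scaling hides any change in total mRNA. Tests took in genes whose RPKM had a median of 0.5 or more in each assay, and ran on log2(RPKM + 0.1) with limma 3.58.1 in R 4.3.3 (trend, 24 libraries an assay), and for TE on log2 RPF minus log2 RNA of a pool, since both libraries came from 1 lysate. Deviations of RNA and RPF of a pool from their timepoint correlated (mean r 0.24, lowest 0.11, over 12 timepoints). Pair tests, correlations and sequence searches used Python 3.11.15 (numpy 2.4.6, scipy 1.17.1). Reads per gene and relative depth were estimated from RPKM and the coding length, using the 100 lowest values above 0 among the 150 lowest genes, of which at least 97% in every library lay within 0.1 of a whole read. Intervals are SEs of the fits or SDs over pools, and with 2 pools a timepoint the spread is pooled over the day. The test and the pair test were checked on data with known answers.

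The members, lists and tests were chosen with earlier results of these data known. Named are the 7 genes, list genes called in any measure, all tested genes of the IRE and IRP2 lists, and the 3 RNA profiles (for the ferritins also TE) most like each member. Alternatives were other pseudocounts (1, 0.01), a stricter (RPKM 2) or absent filter, quantile normalisation, a 12-h harmonic, AIC model choice, a replicate block and each replicate left out. Added after seeing the data were 2 fits without the pools that spread most and 24 that each left out a pool. No protein sequences or read-level files were used. Of the lists, 2 genes are not reported here and were left out of the list counts and medians.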

Additional observations from a re-analysis of the deposited data

How the results depend on the processing

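The number of genes called over all genes was 1210 in RNA, 899 in footprints and 444 in TE. A pseudocount of 1 gave 781 in RNA and 590 in footprints, and AIC model choice gave 727 in TE, and the cause was not tested. Leaving out a replicate gave 722 to 1430 calls in RNA, 370 to 853 in footprints and 0 to 2 in TE (limma, where 1858 genes had an unadjusted p under 0.05 in the fit with 0 calls), with fewer libraries in each fit. The number of member pairs that differed, 9 of 12, went to 2 and 5 with a replicate left out, to 8 under quantile normalisation and to 6 without ZT04 replicate 2 and ZT16 replicate 2. The TE of Ftl1 was called in 1 of its 12 alternatives, without the pools ZT10 replicate 2 and ZT12 replicate 2 (1.59-fold, adjusted p 0.014), and passed on the p or by AIC but not on the fold in 3 others (a pseudocount of 1, a minimum RPKM of 2 and AIC choice). The calls of Fth1 and Tfrc RNA were kept under all 12 alternatives (1.73- to 2.06-fold and 1.83- to 2.15-fold), and no called curve moved its peak by over 6 h. The peak time of curves that did not pass is not fixed, and that of Ftl1 RNA went from 14.3 h to between 4.49 and 19.0 h. The footprint curves of the ferritins lie at the fold threshold, with 1.47- to 1.86-fold for Ftl1 and 1.43- to 1.82-fold for Fth1 and 4 of 12 alternatives called for each, and lost the adjusted p without replicate 1 (0.29 and 0.35), as did Slc40a1 RNA (0.33) and Aco1 RNA (0.53), and Tfrc footprints fell to 1.45-fold without replicate 2.

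The replicate block gave 1214, 895 and 455 calls in RNA, footprints and TE and 9 pairs, and changed no call of a member. The replicate number did not pair the pools: deviations of same-numbered pools correlated on average by 0.03 in RNA and 0.02 in footprints over 66 pairs of timepoints, with ranges of -0.18 to 0.48 and -0.20 to 0.19.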
